A study of Mus musculus with 3 samples.

Results

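The 10 genes described here encode proteins of early myeloid cells. Of these, 4 encode the main enzymes of neutrophil primary granules (Mpo, Elane, Prtn3 and Ctsg) and 6 encode transcription factors that direct myeloid development (Spi1, Cebpa, Cebpb, Cebpe, Irf8 and Gfi1). They were chosen by name and role, and all 10 were found among the 21887 protein-coding RefSeq gene records on chromosomes 1 to 19, X and Y of GRCm38.p6, which has the same coordinates as mm10. The values are the positions of H3K9ac summits inside each record and within 50 kb of its ends, called a window here, and the rank of each summit in its own list. H3K9ac, acetylation of lysine 9 of histone H3, is enriched at active promoters and enhancers. It was mapped by CUT&Tag, in which an antibody tethers a transposase to the mark so that the DNA around it is cut out and sequenced. The cells were haematopoietic stem cells (HSCs) sorted from bone marrow of wild-type mice, 50000 per assay, in 3 groups of 1 library each: old HSC ABC (an abbreviation that the labels leave unexplained), old HSC, and young HSC. The mice were 18 to 24 months old for the groups labelled old and 2 to 4 months old for the group labelled young, as read from the protocol and the first letter of each title.

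Since each group is 1 library, no difference has a replicate check and nothing was tested. The ABC-labelled list held 45386 summits, the old-labelled list 108787 and the young-labelled list 33248. Read depth was unknown, and a list grows with depth. Counts are therefore also given for equal-length lists, made of the 33248 highest-scoring summits of each library. The authors' score of a summit, read as the −log10 q-value of the peak caller, was used to rank summits within a list. As an alternative setting, the same minimum score was also applied to every list. A score depends on depth, so such a cut need not be equally strict in each library. Sample names written inside the 3 files went against the labels. The peaks of the ABC-labelled list are named for plain old HSC with the number 2 (oHSC-H3K9ac-2). Those of the old-labelled list are named for old HSC ABC (oHSC-ABC-H3K9ac-1). Those of the young-labelled list are named for plain old HSC with the number 1 (oHSC-H3K9ac-1). By these names no list would be of young HSCs, and the ABC- and young-labelled lists would belong to the same group. The files do not settle which is right, so groups are named by label throughout and each direction rests on it. In a bulk library fewer cells of a type and less of the mark per cell cannot be told apart.

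Primary granules are the first granules to form as progenitors become promyelocytes, and their enzymes are a textbook sign of commitment to the neutrophil line. PU.1 (the product of Spi1) and the C/EBP factors activate these genes, while Irf8 and Gfi1 take part in the choice between monocytes and neutrophils. HSCs and multipotent progenitors already carry low levels of several of these transcripts, a state called lineage priming. PU.1 belongs to the ETS family of factors, whose sites share a GGAA core.

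The RefSeq promoter table held 10 start-site windows for 8 of the genes: 1 each for Mpo, Elane, Prtn3, Ctsg, Cebpa and Cebpb, and 2 each for Irf8 and Gfi1. Spi1 and Cebpe had no entry. The 250 bases upstream of the start are shown for the 4 granule genes because they share a string of letters that none of the regulator windows held. Capitals mark GAGGAA, an ETS-type string, searched on both strands (its reverse complement is TTCCTC).
Mpo, chr11:87793534-87793783, + strand: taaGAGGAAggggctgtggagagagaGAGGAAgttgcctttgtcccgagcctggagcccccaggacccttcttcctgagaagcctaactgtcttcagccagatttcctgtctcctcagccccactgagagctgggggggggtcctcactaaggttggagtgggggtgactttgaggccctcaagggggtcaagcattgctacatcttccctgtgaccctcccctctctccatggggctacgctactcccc
Elane, chr10:79886062-79886311, + strand: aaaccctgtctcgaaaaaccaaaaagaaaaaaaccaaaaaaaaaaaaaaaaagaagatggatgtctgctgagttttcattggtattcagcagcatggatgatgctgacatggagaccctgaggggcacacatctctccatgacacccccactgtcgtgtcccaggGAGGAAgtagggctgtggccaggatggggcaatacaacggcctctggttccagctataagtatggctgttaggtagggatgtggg
Prtn3, chr10:79879417-79879666, + strand: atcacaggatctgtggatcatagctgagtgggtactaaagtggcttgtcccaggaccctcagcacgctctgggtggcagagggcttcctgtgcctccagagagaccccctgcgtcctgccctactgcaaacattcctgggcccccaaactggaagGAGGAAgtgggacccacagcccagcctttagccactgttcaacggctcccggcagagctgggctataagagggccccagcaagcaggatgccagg
Ctsg, chr14:56102575-56102824, - strand: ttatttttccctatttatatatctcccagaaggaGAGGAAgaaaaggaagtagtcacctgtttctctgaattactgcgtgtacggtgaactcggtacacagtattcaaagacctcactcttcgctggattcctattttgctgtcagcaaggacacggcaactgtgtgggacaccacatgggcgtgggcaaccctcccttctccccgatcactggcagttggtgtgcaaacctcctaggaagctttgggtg
Counted from the start, with -1 the last base before it, GAGGAA began at -247 and -224 in Mpo, -85 in Elane, -95 in Prtn3 and -216 in Ctsg. All 4 granule windows held it, as did 22.2% of the 21263 windows of protein-coding genes, and 0 of the 6 regulator windows did. A match describes the letters and is no evidence of binding. Of the other strings searched on both strands, TTGCNNAA (C/EBP type) was in 1 member window, of Gfi1, against 9.09% of all windows. AATCAC, which holds the core of Gfi1 sites, was in 1, of Irf8 (8.78% of all), TGTGGT (RUNX core) in 1, of Ctsg (12.4%), and CACGTG (E-box) in 0 (6.63%). TATAAA was in 3, of Cebpa, Irf8 and Ctsg (11.6%). In Cebpa and Irf8 it began at -30 and -31 in the sense direction, and in Ctsg it was on the opposite strand and farther away. No match of these other strings overlapped one of GAGGAA in the member windows.

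Only 3 of the 10 windows of 250 bases held a summit in any list. The Mpo window shown above held 87793768 as a summit of both the old- and young-labelled lists, 16 bases before the start. The windows of Cebpa and of the second start of Gfi1 held an old-labelled summit and are shown for that reason, with no capitals because they lack GAGGAA.
Cebpa, chr7:35119043-35119292, + strand: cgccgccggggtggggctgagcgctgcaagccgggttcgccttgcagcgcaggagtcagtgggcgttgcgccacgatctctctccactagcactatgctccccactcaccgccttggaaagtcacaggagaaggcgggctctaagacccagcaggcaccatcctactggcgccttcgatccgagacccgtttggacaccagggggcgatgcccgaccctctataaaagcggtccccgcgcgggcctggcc
Gfi1, chr5:107724344-107724593, - strand: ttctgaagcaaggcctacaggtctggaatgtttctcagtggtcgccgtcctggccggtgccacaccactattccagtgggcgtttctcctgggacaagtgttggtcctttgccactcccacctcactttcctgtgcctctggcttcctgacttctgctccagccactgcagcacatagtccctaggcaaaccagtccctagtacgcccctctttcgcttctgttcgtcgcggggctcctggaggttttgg
The old-labelled summit lay 153 bases before the start of Cebpa (35119140) and 66 bases before the second start of Gfi1 (107724409). Of all 21263 windows of this length, 8.70% held an ABC-labelled, 10.3% an old-labelled and 7.60% a young-labelled summit.

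A gene was called marked in a list when a summit lay inside its record or within 1 kb of either end. In the ABC-labelled list 9 of the 10 genes were marked, against 62.1% of all protein-coding genes. In the old-labelled list 10 of 10 were marked (73.7% of all genes), and in the young-labelled list 9 of 10 (58.2%). The 9 other than Elane were marked in all 3 lists, as were 54.4% of all genes. In equal-length lists 9 of 10 were marked in each library (57.8%, 60.7% and 58.2% of all genes in the ABC-, old- and young-labelled lists). The gene lacking a mark was Elane in the ABC- and young-labelled lists and Irf8 in the old-labelled list. Marked in all 3 equal-length lists were 8 of 10 (51.1% of all genes). With only the ends counted, 7 genes of the ABC-labelled list had a summit within 1 kb of one (43.6% of all genes), 9 of the old-labelled (56.9%) and 5 of the young-labelled list (41.9%). In equal-length lists 6, 7 and 5 had one, beside 40.5%, 45.5% and 41.9% of all genes. Around start sites, 4 of the 8 genes with an annotated start had a summit within 1 kb of one in each library, against 46.3%, 57.9% and 45.5% of all genes with a start in the ABC-, old- and young-labelled lists.

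The strongest summit of most of these genes lay downstream of the start rather than on it. Its median distance from the nearest start was 1676 bp over 7 genes in the ABC-labelled, 1684.5 bp over 8 genes in the old-labelled and 1874 bp over 7 genes in the young-labelled list. Over all marked genes with a start the medians were 593, 509 and 519 bp in the same order. Within 1 kb of a start lay 2 of 7 (Gfi1 and Irf8), 1 of 8 (Gfi1) and 2 of 7 (Gfi1 and Ctsg), against 62.6%, 65.9% and 68.9% of all such genes.

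Mpo encodes myeloperoxidase, the most abundant primary granule enzyme, on chromosome 11 (87793784 to 87804412). Its strongest summit was nearly the same base in the 3 libraries: 87796815 in the ABC-labelled, 87796813 in the old-labelled list and 87796815 in the young-labelled one, 3029 to 3031 bp into the gene. It ranked 1997 in the ABC-labelled list (top 4.40%), 5932 in the old-labelled list (5.45%) and 1283 in the young-labelled list (3.86%). At the start itself the summits were weaker. The ABC-labelled list had them 165 and 1031 bp downstream (ranks 29339 and 6969), and the base 16 bp upstream ranked 15694 in the old-labelled list and 25092 in the young-labelled one. That base and both of these ABC-labelled summits also lie in the record of the non-coding gene Gm34064, so none of them can be assigned to Mpo alone. The window of Mpo held 12 ABC-labelled, 18 old-labelled and 9 young-labelled summits. In equal-length lists these were 9, 10 and 9.

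Elane and Prtn3 encode neutrophil elastase and proteinase 3, serine proteases that digest microbial proteins. They are neighbours on chromosome 10 (Elane 79886312 to 79888216, Prtn3 79879667 to 79883174), and most summits of their windows are the same ones. Prtn3 was marked in all 3 lists. Its strongest summit was at 79881475 in the ABC-labelled (rank 2710, top 5.97%) and old-labelled lists (rank 5858, top 5.38%), and at 79881541 in the young-labelled list (rank 5190, top 15.6%), 1808 to 1874 bp into the gene. A further summit at 79880691 in the ABC-labelled list (rank 5241) and 79880688 in the young-labelled list (rank 8166) had no separate old-labelled counterpart. Elane had a summit of its own only in the old-labelled list, at 79887991, 1679 bp downstream of its start and 225 bp from its far end (score 8.57, rank 20041, within the equal-length list). The ABC-labelled summit nearest to an Elane end was 4837 bp away and the young-labelled one 4771 bp, both inside Prtn3. These windows are gene-rich, with 8 other protein-coding records around Elane and 9 around Prtn3. Of the 14 ABC-labelled summits around Prtn3, 9 lay in other coding records, as did 9 of the 15 old-labelled and 6 of the 11 young-labelled ones. The strongest old-labelled summit of both windows lay in Med16, a subunit gene of the Mediator complex (79908643, rank 4008).

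Ctsg encodes cathepsin G, another granule serine protease, on chromosome 14 (56099885 to 56102574, minus strand), next to granzyme and mast cell protease genes. A single old-labelled summit lay 1690 bp downstream of its start (56100884, rank 8761, top 8.05%). The young-labelled list had one at 56102074, 500 bp downstream (rank 7397, top 22.2%), and the ABC-labelled list had the same base (rank 18948) and a stronger one at 56101284 (rank 12401, top 27.3%). Its window was the sparsest of the granule genes, with 5 ABC-labelled, 5 old-labelled and 2 young-labelled summits. In equal-length lists it held 5, 2 and 2.

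**Figure D1:**
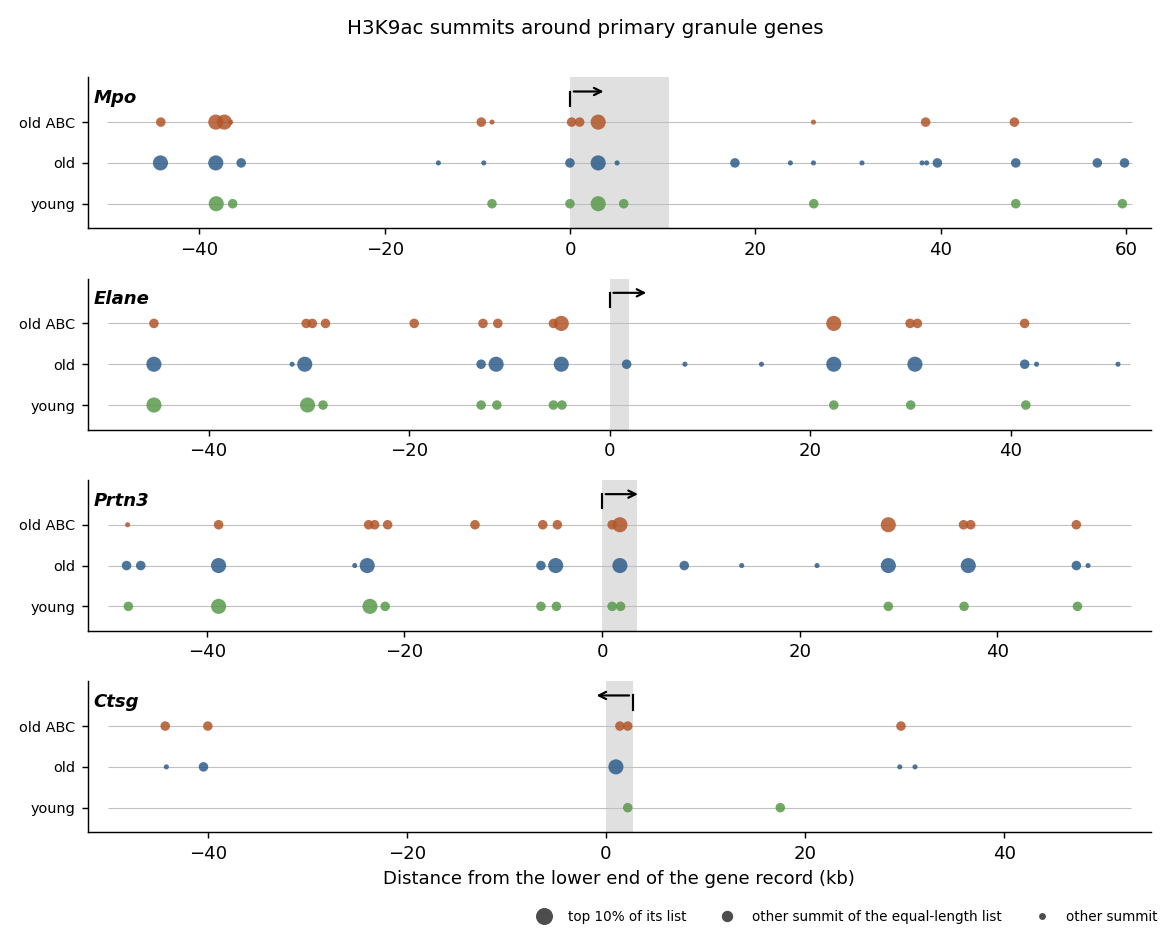
Positions of H3K9ac summits around the 4 primary granule genes, as distance in kb from the lower end of each gene record (grey); arrows give the start and direction of transcription, rows are the ABC-, old- and young-labelled libraries, and point size gives the rank class within the own list. The summit 3029 to 3031 bp into Mpo recurs in all 3 rows, and the record of Elane holds a point only in the old-labelled row.

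Spi1, the gene of PU.1, is on chromosome 2 (91082374 to 91115759) and held the highest-ranking own summit of the 10 genes in the old- and young-labelled lists. In the ABC-labelled list its strongest summit was at 91098074 and ranked 2750 (top 6.06%), in the old-labelled list it was at 91096831 and ranked 1212 (top 1.11%), and in the young-labelled list it was at 91097982 and ranked 273 (top 0.821%). The old-labelled one was more than 500 bp from both others, so it does not count as the same position. A summit farther into the record recurred in all 3 lists, at 91112053, 91112058 and 91112078 in the ABC-, old- and young-labelled libraries (ranks 17578, 22070 and 5359). Another lay outside the lower end of the record, at 91078554, 91078511 and 91078523 (ranks 14101, 13259 and 15677). Near that lower end, inside the record, the ABC-labelled list had a summit at 91082923 (rank 26241) and the old-labelled list at 91082925 (rank 22776), whereas the young-labelled list had its nearest summit to an end 3681 bp away. Spi1 is known to be controlled by an upstream enhancer as well as its promoter. Start sites of Spi1 were not analysed here, so these summits are given by position only. The window held 12 ABC-labelled, 19 old-labelled and 7 young-labelled summits, or 11, 12 and 7 in equal-length lists.

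Cebpa, which drives granulocyte commitment, is on chromosome 7 (35119293 to 35121928) with no other protein-coding gene in its window. Its own strongest summit was at 35120969 in the ABC-labelled (rank 3937, top 8.67%), 35120924 in the old-labelled (rank 5149, top 4.73%) and 35120974 in the young-labelled list (rank 2596, top 7.81%), 1631 to 1681 bp into the gene. Outside the gene the lists differed. Downstream, summits 14632, 36219 and 46254 bp from the start in the old-labelled list had counterparts 14661, 36258 and 46223 bp from the start in the young-labelled list, and the ABC-labelled list had none on that side. The 3 old-labelled ones ranked 100484, 51342 and 83030, outside the equal-length list. The mouse gene is known for a downstream enhancer used in myeloid progenitors, and its position was not analysed here. Upstream, the ABC-labelled list had a summit at 35080968 (rank 38782), the old-labelled list at 35081149 (rank 16756) and the young-labelled list at 35081552 (rank 7799), the old-labelled one being within 500 bp of both others. The window held 3 ABC-labelled, 15 old-labelled and 5 young-labelled summits, but in equal-length lists 1, 2 and 5.

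Cebpb, which acts when granulocytes are made in response to infection, is on chromosome 2 (167688915 to 167690432). No library had a summit inside its short record. The mark came from a summit beyond its far end, at 167691104 in the ABC-labelled (rank 17915, top 39.5%), 167690822 in the old-labelled (rank 9287, top 8.54%) and 167691084 in the young-labelled list (rank 10472, top 31.5%). That stretch belongs to the non-coding record A530013C23Rik, so the summit cannot be assigned to Cebpb alone. The strongest summit of the window in all 3 lists lay in Tmem189, at 167660663 in the ABC-labelled and 167660667 in both other lists (ranks 2188, 5120 and 2381). A weaker one 12640, 12782 and 12705 bp downstream of the start recurred in the ABC-, old- and young-labelled lists. The window held 5 ABC-labelled, 16 old-labelled and 5 young-labelled summits, or 4, 8 and 5 in equal-length lists.

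Cebpe, needed for the later steps of neutrophil maturation, is on chromosome 14 (54710363 to 54712174) and had low-ranking summits. These were at 54710182 in the ABC-labelled list (rank 21608, top 47.6%), at 54712854 in the old-labelled list (rank 27819, top 25.6%) and at 54710457 in the young-labelled list (rank 15821, top 47.6%). The ABC- and young-labelled ones were 275 bp apart at one end of the record, and the old-labelled one lay past the opposite end. One base of this window, 54686625, was a summit in all 3 lists with ranks of 677, 1021 and 655 in the ABC-, old- and young-labelled libraries. It lies 23738 bp below the lower end of Cebpe, in the overlapping records of Acin1 and 1700123O20Rik. The 12 ABC-labelled, 19 old-labelled and 8 young-labelled summits of the window became 8, 6 and 8 in equal-length lists.

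Irf8, which favours monocytes and dendritic cells, is on chromosome 8 (120736358 to 120756694). It had the most old-labelled summits of the 10 windows, 20, against 8 ABC-labelled and 4 young-labelled ones, although no summit inside or within 1 kb of the gene ranked high. Its record of 20337 bp makes the window longer than most. Per 100 kb it held 16.6 old-labelled summits, fewer than the 18.7 of Cebpe. Its strongest own summit ranked 19555 in the ABC-labelled list (top 43.1%), 36766 in the old-labelled list (top 33.8%) and 20133 in the young-labelled list (top 60.6%). The 3 lay at different places, 2989, 1210 and 5838 bp downstream of the first start. The old-labelled list also had lower-ranking summits beside the ABC- and young-labelled ones, at 2906 and 5860 bp (ranks 37921 and 101755). The sites that recurred in all 3 lists were outside the record. One was 10981, 11085 and 10962 bp upstream of the start in the ABC-, old- and young-labelled lists (ranks 11327, 12952 and 31454), and another 28865, 28968 and 28905 bp downstream of it (ranks 18906, 14239 and 23496). Farther downstream the old-labelled list alone had summits 51041, 57322, 62255 and 68180 bp downstream of the start. In equal-length lists the window held 3 ABC-labelled, 7 old-labelled and 4 young-labelled summits.

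Gfi1, a repressor that holds back monocyte genes and restrains HSC proliferation, is on chromosome 5 (107716655 to 107725805, minus strand). All 3 libraries had a summit by its second start (107724343): 145 bp downstream in the ABC-labelled list (107724198, rank 21073, top 46.4%), 66 bp upstream in the old-labelled list (107724409, rank 10676, top 9.81%) and 200 bp downstream in the young-labelled list (107724143, rank 11324, top 34.1%). Closer to the first start (107725805) the old-labelled list alone had summits, 363 bp downstream of it (rank 19662) and 1139 bp upstream (rank 14498). The ABC-labelled list had 1 summit in the whole window, the old-labelled list 11 and the young-labelled list 2. In equal-length lists these were 1, 4 and 2.

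**Figure D2:**
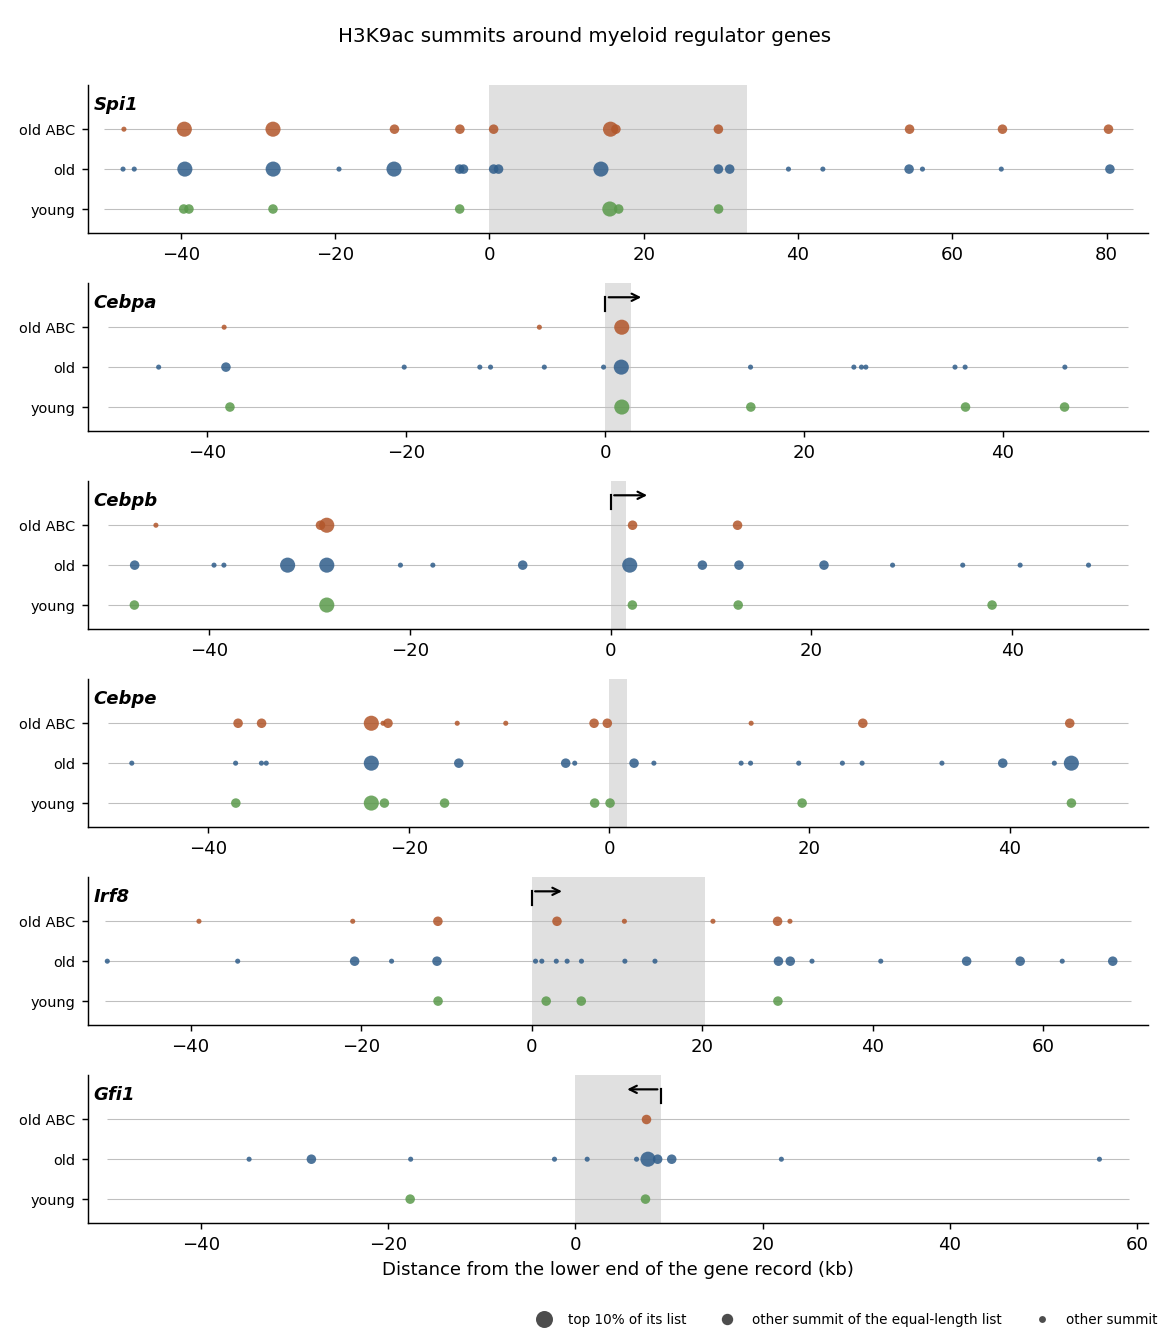
Positions of H3K9ac summits around the 6 regulator genes, drawn as distance in kb from the lower end of the record (grey), with arrows at annotated starts, rows for the ABC-, old- and young-labelled libraries and point size for the rank class within the own list. The records of Spi1 and Cebpa hold a large point in all 3 rows, and the windows of Cebpb and Cebpe hold one outside the record in all 3. The old-labelled row of Irf8 holds 20 points, against 8 ABC-labelled and 4 young-labelled ones.

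By rank, the strongest own summits of Mpo, Spi1 and Cebpa were in the top 10% of every list. Over the marked members the median was the top 27.3% in the ABC-labelled, 8.30% in the old-labelled list and 22.2% in the young-labelled one, beside 17.7%, 8.02% and 20.4% over all marked genes. In the top 10% were 4 of 9 members (32.0% of all marked genes) in the ABC-labelled, 7 of 10 (57.2%) in the old-labelled and 3 of 9 (27.1%) in the young-labelled list. The granule genes had medians of 5.97% (3 genes), 6.75% (4 genes, Elane included) and 15.6% (3 genes), and the 6 regulators 41.3%, 9.18% and 32.8%, in the ABC-, old- and young-labelled lists. Lists of different length give different percentages to the same site, so these values order genes within a library only.

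**Figure D3:**
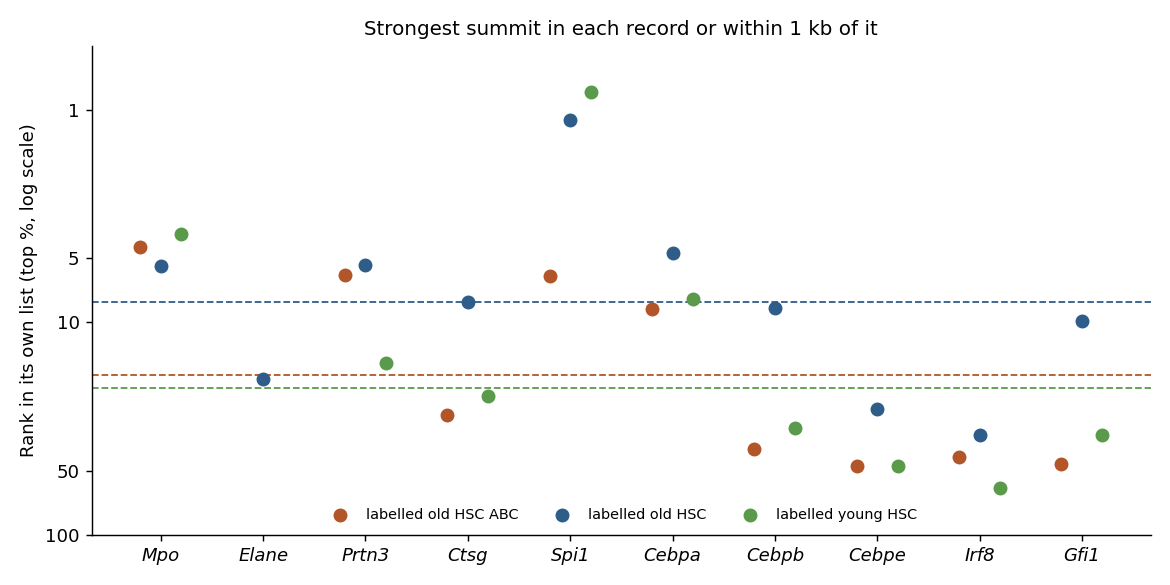
Rank of the strongest summit inside or within 1 kb of each gene, as the top percentage of its own list on a log axis with the highest ranks at the top; colours are the ABC-, old- and young-labelled libraries, and dashed lines give the medians over all marked genes. Spi1 is highest in the old- and young-labelled libraries, Irf8 and Cebpe are low in all 3, and Elane has a point in the old-labelled library only.

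The genes whose ranks were most like those of Spi1, the member with the highest mean rank, were Clec12a, Mtus1 and 1700092M07Rik. Their strongest own summits were in the top 6.37%, 5.43% and 5.48% of the ABC-labelled list, the top 0.654%, 1.43% and 1.68% of the old-labelled list and the top 1.19%, 1.39% and 1.47% of the young-labelled list. None differed from Spi1 by more than 0.650 percentage points in any of the 3 libraries, among 11917 genes marked in all 3.

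The old-labelled library was set against the young-labelled one, which is a contrast of age by label only. With 1 library each, age cannot be told apart from depth or other differences between libraries. Elane was the 1 gene of 10 marked in the old-labelled and not in the young-labelled list, against 15.9% of all genes, and 0 were marked the other way (0.402%). The windows of all 10 genes held more old-labelled than young-labelled summits, as did those of 81.6% of all genes (0.644% held fewer), while the old-labelled list was 3.27 times as long. In equal-length lists 5 genes (Mpo, Spi1, Cebpb, Irf8 and Gfi1) had more summits in the old-labelled library (30.0% of all genes) and 3 (Elane, Cebpa and Cebpe) had fewer (32.3%). Prtn3 and Ctsg had equal numbers. In those lists Elane was still marked in the old-labelled and not in the young-labelled library (6.11% of all genes), and Irf8 in the young-labelled library and not the old-labelled one (3.62%). The Irf8 difference came from the cut. Its strongest own old-labelled summit (rank 36766, score 5.5) fell outside the first 33248, while the young-labelled list kept one with a score of 3.72.

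The ABC-labelled library was set against the old-labelled one, a contrast of ABC by label only, which likewise cannot be told apart from depth or library. No member was marked in the ABC-labelled and not in the old-labelled list (0.690% of all genes), and Elane was marked in the old-labelled and not in the ABC-labelled list (12.2%). Of the 10 windows 9 held fewer ABC-labelled than old-labelled summits (78.9% of all genes), and Ctsg had 5 in each. None held more, against 1.72% of all genes. The ABC-labelled list was 0.417 times as long as the old-labelled list. With both cut to equal length, Irf8 was marked in the ABC-labelled and not in the old-labelled list (3.80% of all genes), and Elane in the old-labelled and not in the ABC-labelled list (6.65%). Here too the Irf8 difference came from the cut, which removed its old-labelled summits. In equal-length lists the windows of Elane, Prtn3, Ctsg and Cebpe held more ABC-labelled summits (32.0% of all genes), and those of Mpo, Spi1, Cebpa, Cebpb, Irf8 and Gfi1 held fewer (30.7%). The difference was 1 summit at Mpo, Spi1 and Cebpa. At scores of at least 5 the window of Elane alone held more ABC-labelled summits, and at scores of at least 10 none did. Scores depend on depth, so these cuts do not set the libraries on equal terms. Elane and Prtn3 count summits in common, in equal-length lists with 13 ABC-labelled and 9 old-labelled ones around Elane and 13 ABC-labelled and 11 old-labelled ones around Prtn3.

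Against the young-labelled library, no member was marked in the ABC-labelled list and not in the young-labelled one (7.57% of all genes), or the other way round (3.61%). The same held in equal-length lists, where 5.17% and 5.53% of all genes were. As deposited, 7 windows held more ABC-labelled than young-labelled summits (53.7% of all genes) and those of Cebpa and Gfi1 held fewer (14.5%). In equal-length lists 4 held more (Elane, Prtn3, Ctsg and Spi1; 30.9% of all genes) and 4 fewer (Cebpa, Cebpb, Irf8 and Gfi1; 32.2%). The 3 comparisons share libraries, so their values are not independent of each other.

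**Figure D4:**
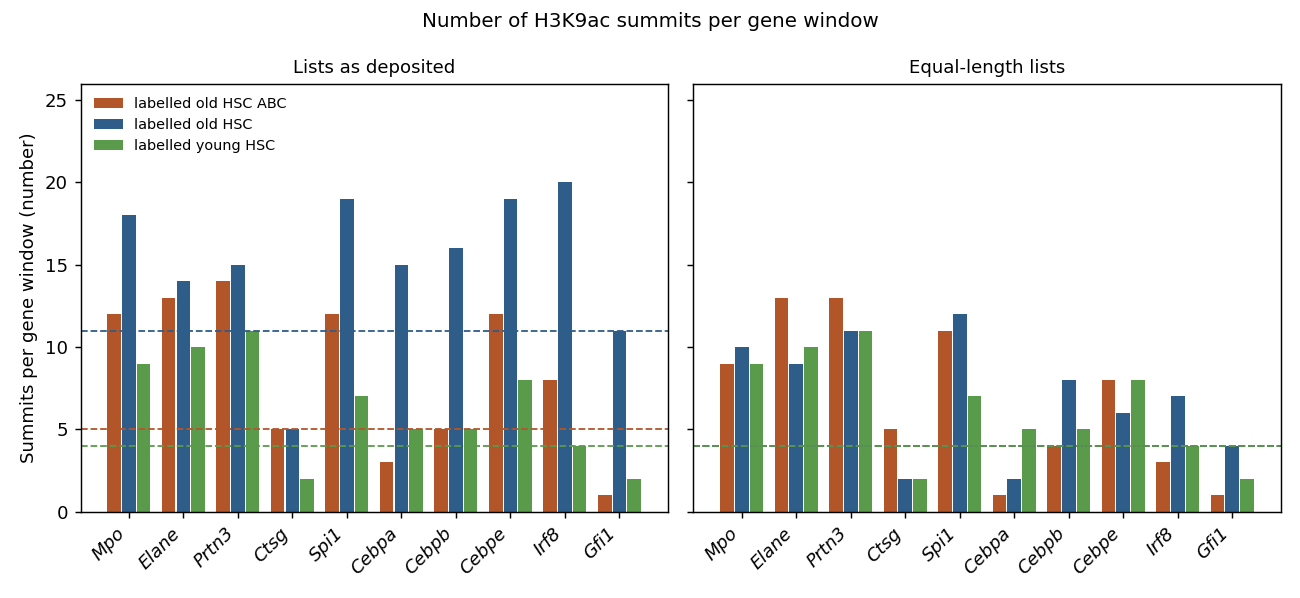
Number of H3K9ac summits inside each gene record and within 50 kb of its ends, as bars for the ABC-, old- and young-labelled libraries, for the lists as deposited (left) and cut to equal length (right); dashed lines are medians over all protein-coding genes. As deposited the old-labelled bar is the highest or tied at every gene, and in equal-length lists the highest bar changes from gene to gene.

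Taking the windows of Elane and Prtn3 as 1 region, the 10 genes filled 9 regions of 990.7 kb in all. These held 72 ABC-labelled, 139 old-labelled and 53 young-labelled summits, or 7.27, 14.0 and 5.35 per 100 kb. The median over the windows of all protein-coding genes was 3.69, 8.82 and 2.68 per 100 kb. With the 10 windows taken singly, summits common to Elane and Prtn3 count for both. The median window then held 10 ABC-labelled, 15.5 old-labelled and 6 young-labelled summits, beside 5, 11 and 4 over all protein-coding genes. In equal-length lists the medians were 6.5, 7.5 and 6, beside 4 in each over all genes. The 4 granule windows had medians of 11, 9.5 and 9.5 there, in the ABC-, old- and young-labelled lists. The 6 regulator windows had 3.5, 6.5 and 5, so the ABC-labelled value was below that of all genes. Of the old-labelled summits in these regions, 27.3% had a young-labelled one within 500 bp (95% Clopper-Pearson interval 20.1 to 35.5), beside 23.8% of the whole list (23.5 to 24.0). Of the ABC-labelled ones 72.2% had an old-labelled neighbour (60.4 to 82.1; whole list 72.4%) and 55.6% a young-labelled one (43.4 to 67.3; whole list 43.5%). In equal-length lists the old-labelled share near young-labelled summits was 48.4% (35.5 to 61.4), below the 55.1% of the whole list. The ABC-labelled shares near old- and young-labelled summits were then 60.0% and 63.6%, beside 56.1% and 52.7% of the whole list. The intervals cover counting error only. Of the young-labelled summits 28 of 53 lay within 500 bp of a summit in both other lists, which is 52.8%, beside 52.6% of the whole list. No counterpart in either other list was found for 8 of the 72 ABC-labelled summits (11.1%, beside 22.7% of the whole list), 77 of the 139 old-labelled ones (55.4%, beside 62.0%) and 6 of the 53 young-labelled ones (11.3%, beside 16.2%).

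Among 27 other myeloid regulator and granule genes, 23 were marked in the ABC-labelled, 26 in the old-labelled list and 24 in the young-labelled one, and 22 in all 3, beside 62.1%, 73.7%, 58.2% and 54.4% of all genes. In equal-length lists the counts were 23, 23 and 24, with 21 in all 3, beside 57.8%, 60.7%, 58.2% and 51.1% of all genes. Those that differed there were Bpi, a bactericidal protein of primary granules, marked in the ABC- and young-labelled lists, Batf3, a dendritic cell factor, in the ABC-labelled list alone, and Nab2, a partner of Egr factors, and Csf2ra, a GM-CSF receptor subunit, in the old- and young-labelled lists.

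As a check of the cell type, 9 of 10 HSC genes were marked in each library, Slamf1 missing from the young-labelled list and Hoxb5 from both others. In equal-length lists 8, 9 and 9 were marked in the ABC-, old- and young-labelled lists, Slamf1 then missing from the ABC-labelled list too. Of all protein-coding genes 62.1%, 73.7% and 58.2% were marked, and 57.8%, 60.7% and 58.2% at equal length. Of 8 mature neutrophil genes 5 were marked in the ABC-labelled, 8 in the old-labelled list and 4 in the young-labelled one, or 4, 8 and 4 in equal-length lists. Monocyte genes stood at 5, 6 and 5 of 6 (at equal length 5, 4 and 5) and B cell genes at 2, 5 and 2 of 6 (2, 4 and 2). T and NK cell genes stood at 3, 3 and 1 of 5 (1, 2 and 1), erythroid genes at 2, 3 and 1 of 6 (unaltered at equal length), and megakaryocyte genes at 4, 5 and 3 of 6 (4, 4 and 3). Of 8 genes of other tissues 1, 5 and 2 were marked, and 1, 1 and 2 in equal-length lists. In equal-length lists the old-labelled count was the highest for mature neutrophil, B cell, T and NK cell and erythroid genes, and the lowest for monocyte genes. The part of other cell types in the old-labelled summit of Elane was not tested.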

How the data were processed

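H3K9ac CUT&Tag summits of 3 libraries were used, 1 per group. Per the submitters' processing notes the authors used BWA, Picard, MACS2 and edgeR with mm10; the role, version and settings of each tool, and any control library, were not given in the sources used here. The deposited column used is a score per summit, read as a −log10 q-value because no list goes below 1.301, which is a q-value of 0.05. Each list belongs to 1 library. A score depends on depth, so ranks were compared within a list only. For the same reason, counts at a minimum score do not set the libraries on equal terms.

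Gene records came from RefSeq (GRCm38.p6), starts and promoter sequences from its promoter table, with 250 bases before the start searched for motifs. Exons and UTRs were not analysed here. Summits of different lists were shared when within 500 bp. Python 3.11.15 with pandas 2.3.3 and SciPy 1.17.1 was used, and the counting was tested on simulated summits. Alternatives were equal-length lists, scores of at least 5 and 10, other distances and merged summits. The genes and lists were chosen with earlier results of these data known, and named genes were all 10 members, listed genes differing between equal-length lists, neighbours holding the highest-scoring summit of a window and the 3 genes ranked most like the leading member. Trac, 1 of 6 T and NK cell genes, had no protein-coding record.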

Additional observations from a re-analysis of the deposited data

How the results depend on the processing

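No paired analysis was possible because each group had 1 library. For the score cuts and the other distances, apart from 1 kb from a start, no share over all protein-coding genes was computed. Those counts of members therefore cannot be set against other genes. The score cuts also do not set the libraries on equal terms, since a score depends on depth. Members marked with scores of at least 5 numbered 5 in the ABC-labelled list, and with scores of at least 10 they numbered 4 in the ABC-labelled and 4 in the young-labelled list. Members with an end summit then numbered 1 (ABC-labelled) and 3 (young-labelled) at 5, and 1, 3 and 1 in the ABC-, old- and young-labelled lists at 10. Within 500 bp of an end they numbered 3 in the ABC-labelled and 3 in the young-labelled list, and within 2 kb 8 in the young-labelled list. Within 1 kb of a start they numbered 4 in the ABC- and 4 in the old-labelled list. That count is out of the 8 members with an annotated start, beside 46.3% and 57.9% of all genes with one. Window summits in the ABC-, old- and young-labelled lists were 31, 73 and 27 at scores of at least 5, 13, 36 and 15 at 10, 45, 81 and 34 with 25 kb on either side, 27, 44 and 21 with 10 kb, and 62 in the old-labelled equal-length list, all by construction fewer. The median rank of the strongest own summit, 12401, 9024 and 7397 in the ABC-, old- and young-labelled lists, was 2750 (ABC-labelled) at 5 and 2730, 5932 and 1939.5 at 10, since members without such a summit dropped out. The share of old-labelled summits near young-labelled ones was 48.4% in equal-length lists (55.1% of the whole list) and 36.1% at 10. That of ABC-labelled near old-labelled was 60.0% in equal-length lists (56.1% of the whole list), and that of ABC-labelled near young-labelled 76.9% at 10.

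Marked in the old- and not the young-labelled list were 3 members at 5 and 3 at 10, and 0 with 5 kb around the record; the reverse was 1 in equal-length lists and 1 in the record only. Marked in the ABC- and not the old-labelled list was 1 in equal-length lists, and the reverse was 5 at 5, 3 at 10 and 0 with 5 kb. Marked in the young- and not the ABC-labelled list were 2 at 5 and 1 in the record only. The difference in window summits changed sign for Elane (old minus young -1, ABC minus old 4), Prtn3 (ABC minus old 2), Cebpa (old minus young -3), Cebpe (old minus young -2, ABC minus old 2) and Irf8 (ABC minus young -1) in equal-length lists. It also did so for Elane (ABC minus old 1) and Cebpe (ABC minus young -1) at 5, for Elane and Prtn3 (ABC minus young -2 each) at 10, for Prtn3 (ABC minus old 1) and Ctsg (old minus young -1) with 25 kb, and for Cebpa (ABC minus young 1) with 10 kb. The cause of changes other than by construction was not tested. The other 69 alternative values of the counts over members, shares and median ranks stayed within 1.5 times or within their interval. The differences in window summits per gene were less stable. Of their alternative values 105 moved by more than 1.5 times or to or from 0, 14 changed sign and 61 stayed the same by this rule.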

Other observations

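The highest-scoring summit in the 50 kb around Mpo was not at Mpo in the ABC- and old-labelled lists. It lay at 87755552 in the ABC-labelled list (rank 658) and 87755551 in the old-labelled list (rank 243), and the young-labelled list had one at 87755600 (rank 1441), just behind the 1283 of its summit inside Mpo. The overlapping hairpin records of Mir142b and Mir142, microRNA genes known for expression in blood cells, lie beside it, that of Mir142 (chromosome 11, 87756864 to 87756927) 1313 bp from the old-labelled summit. Both other lists had a lower-ranking summit closer to Mir142, 214 bp away in the ABC-labelled (rank 37670) and 444 bp in the young-labelled list (rank 11742). Between 87755552 and Mir142 the ABC-labelled list had a further summit, at 87756479 (rank 3062, top 6.75%). The microRNA genes were looked up after the values were seen.

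Among the other granule genes, Lyz2, a lysozyme gene of neutrophils and macrophages, had its strongest summit at rank 27910 in the ABC-labelled list (top 61.5%), 199 in the old-labelled list (top 0.183%) and 2667 in the young-labelled list (top 8.02%). Ms4a3, a marker of granulocyte and monocyte progenitors, had ranks of 1793, 3723 and 1161 (top 3.95%, 3.42% and 3.49%) in the ABC-, old- and young-labelled lists. Plac8 had 1563, 1032 and 1381 (top 3.44%, 0.949% and 4.15%). These examples were chosen after their values were seen.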
